A study of Mus musculus with 15 samples.

Results

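Axon guidance ligands and receptors were followed in the RNA of mouse optic nerves. Members were chosen by gene name: semaphorins of classes 3 to 7, plexins A to D, neuropilins, ephrins, Eph receptors, Slit, Robo, netrin, netrin-G, Unc5 and RGM genes, and Dcc, Neo1, Rtn4, Rtn4r, Omg and Lingo1. The rule found 64 of the 14237 genes listed. Of these, 33 encode ligands and 30 encode receptors or receptor subunits, and 1 is the noncoding transcript Plxna4os1, which the name pattern caught. All 64 passed the filter on low counts that left 14194 genes for testing. Every listed gene reached at least 1 FPKM, a level scaled to transcript length and library size, in 4 or more libraries of a group, and a gene could thus be listed through 1 group alone. Other guidance genes, among them Slit1, Slit3 and Robo3, were not analysed here, and the counts that follow describe the listed genes.

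The nerves came from adult C57BL/6J mice in 3 groups of 5 nerves, labelled as biological replicates 2 to 6. In the crush AAV-CNTF group the eye received an intravitreal injection of AAV2 (adeno-associated virus serotype 2, a gene delivery vector) that expressed a secreted form of the cytokine ciliary neurotrophic factor, and the optic nerve was crushed 2 weeks later. The crush AAV-null group received AAV2 without a transgene before the same crush, and the sham AAV-null group received AAV2 without a transgene before an operation that exposed the nerve without crushing it. Crushed nerves were taken 7 days after injury, the sources used here give no times for the sham group, and every group carried a virus, so no nerve stands for an uninjected eye.

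Guidance ligands steer growing axons by attraction or repulsion. Semaphorins act through plexins, the secreted class 3 members mostly with a neuropilin as binding subunit. Ephrins are cell-surface ligands of the Eph receptor tyrosine kinases and can also signal back into the cell that carries them. Slits repel through Robo receptors, netrins act through Dcc and Unc5 receptors, and repulsive guidance molecules (RGM) act through neogenin (Neo1). Nogo (Rtn4) and oligodendrocyte-myelin glycoprotein (Omg) are inhibitors of axon growth made by myelinating cells, and both bind the Nogo receptor (Rtn4r), which works with the co-receptor Lingo1. In the adult optic nerve the cell bodies of the retinal axons lie outside the tissue sampled, so most RNA measured there comes from glia, immune cells and cells of vessels and sheath.

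For 4 members whose levels changed after crush, the 250 bases before the annotated start are shown, read 5′ to 3′ on the gene's strand from RefSeq's GRCm38.p6 table. Plxnc1 and Efnb1 were higher after crush, and Ephb1 and Unc5b were lower. Capitals mark GC boxes (GGGCGG on either strand), and no other motif searched was found in these windows or overlapped them.
Plxnc1: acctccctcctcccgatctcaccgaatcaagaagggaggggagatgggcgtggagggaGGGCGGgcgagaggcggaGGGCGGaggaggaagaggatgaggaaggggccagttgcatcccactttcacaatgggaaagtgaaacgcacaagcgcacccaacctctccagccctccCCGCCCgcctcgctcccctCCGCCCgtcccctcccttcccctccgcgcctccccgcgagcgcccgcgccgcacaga
Efnb1: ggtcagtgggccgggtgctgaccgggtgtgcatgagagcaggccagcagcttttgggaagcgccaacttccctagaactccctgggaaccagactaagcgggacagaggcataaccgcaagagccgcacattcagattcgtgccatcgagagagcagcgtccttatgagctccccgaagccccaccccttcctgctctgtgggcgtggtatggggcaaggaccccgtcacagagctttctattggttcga
Ephb1: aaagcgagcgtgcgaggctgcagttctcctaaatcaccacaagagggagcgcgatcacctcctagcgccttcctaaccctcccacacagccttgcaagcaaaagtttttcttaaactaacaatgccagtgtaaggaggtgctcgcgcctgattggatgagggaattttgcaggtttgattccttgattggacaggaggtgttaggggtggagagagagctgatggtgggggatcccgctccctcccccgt
Unc5b: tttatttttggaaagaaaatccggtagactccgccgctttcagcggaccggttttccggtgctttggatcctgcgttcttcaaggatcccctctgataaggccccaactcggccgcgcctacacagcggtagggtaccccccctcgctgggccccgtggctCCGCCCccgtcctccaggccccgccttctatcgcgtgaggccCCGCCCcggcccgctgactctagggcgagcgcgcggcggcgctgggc
The Plxnc1 window lies at chr10:94944846-94945095 on the minus strand and holds 4 GC boxes and 22 CpG pairs. The Efnb1 window, chrX:99135811-99136060 on the plus strand, holds no GC box and 13 CpG pairs. The Ephb1 window, chr9:102354694-102354943 on the minus strand, holds no GC box and 10 CpG pairs. The Unc5b window, chr10:60831582-60831831 on the minus strand, holds 2 GC boxes and 27 CpG pairs. Upstream windows were matched for 53 of the 64 members, with 73 windows in all because some genes have several starts. Over these windows 68.5% held a GC box, against 56.7% of the 13265 windows of all tested genes. The AP-1 letters TGANTCA stood in 4.11% of the members' windows (3 of 73) and 4.58% of all, and the STAT letters TTCNNNGAA in 2.74% (2 of 73) and 5.76%. The E-box letters CACGTG stood in 4.11% of the members' windows (3 of 73) and 8.07% of all. These member shares rest on few windows. By a match of letters, the first window continued into a GENCODE M21 transcript start for 43 of the 53 members. Both strands were searched, windows of 1 gene can overlap, and a match describes the letters only.

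Per library, expected counts over the listed genes summed to 19856688 to 29558293. In a principal component analysis, crush AAV-null replicate 6 stood apart, with a score of -99.75 on component 2 against -8.98 to 24.0 in the other 14 libraries, and with 3.18% of listed genes at 0 against 0.976% to 2.29%. Member calls that it changed are given with and without it. Oligodendrocyte and astrocyte markers, the defining genes of nerve glia, were present in every group, with 8 of 8 and 7 of 7 on the list. Among markers of tissue that could be carried along, 2 of 8 retinal neuron genes and 4 of 6 skeletal muscle genes were among the genes analysed here. In tissue RNA such as this, fewer cells of a type and less RNA per cell cannot be told apart. By the annotation, 10 members share exonic bases with a gene on the opposite strand, from 33 bases in Ephb4 to 970 in Plxna1 and 1284 in Rtn4, and 152 in Ephb1, 110 in Plxna4, 257 in Plxnb1, 258 in Rgma and 118 in Unc5c. The sources used here do not give the strand setting of the authors' counting, so reads from these stretches could come from either gene. On the same strand, Ntng2 shares 558 exonic bases with 6530402F18Rik and Plxnc1 115 with Gm48718. Nrp1 shares 80 with Mir1903 and Sema4a 73 with Mir7011, and no strand setting would separate reads there.

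Levels of different members were compared per transcript length, as CPM (counts relative to the library's total) divided by the transcript's length in kilobases (CPM per kb, mean ± SD, n = 5 per group). A single length was used per gene, the median over libraries of the length implied by the deposited counts and FPKM. That length varied between libraries, with an SD of up to 0.937 times the length among members. The SDs of CPM per kb, and of shares and ratios per length, leave this out. Rtn4, the Nogo gene (chromosome 11, 29692947 to 29744331, mm10), was the most abundant member in every group, at 173 ± 14.6 CPM per kb in crush AAV-CNTF nerves, 180.2 ± 7.88 in crush AAV-null nerves and 202 ± 19.5 in sham nerves. In sham nerves Efnb3, a transmembrane ephrin that repels axons at the midline of the mouse spinal cord, came next at 119 ± 17.7 CPM per kb. Rgma, a membrane-anchored repellent, followed at 93.1 ± 4.03, with the secreted semaphorin gene Sema3b at 90.2 ± 11.9 and the transmembrane semaphorin gene Sema6d at 88.5 ± 9.30. The 3 genes Rgma, Sema3b and Sema6d differed by less than the SD of Sema3b. The most abundant receptors of sham nerves were Neo1, the RGM receptor, at 44.2 ± 2.94 and Unc5b, a repulsive netrin receptor, at 38.7 ± 6.51, which differed by less than the SD of Unc5b.

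The order changed in crushed nerves. In crush AAV-null nerves Sema4d, a transmembrane semaphorin made by oligodendrocytes, stood next to Rtn4 at 62.5 ± 8.12 CPM per kb, and Rgma at 54.9 ± 4.10, the receptor Plxnb2 at 54.5 ± 5.76 and Efnb3 at 48.2 ± 9.42 followed, each within an SD of its neighbour in that order. In crush AAV-CNTF nerves Rgma (62.1 ± 7.97) and Sema4d (61.9 ± 11.4) were level, ahead of Plxnb2 (47.5 ± 7.89), Sema6d (45.0 ± 1.54) and Efnb3 (41.4 ± 5.87). Plxnb2 was the most abundant receptor of both crush groups, while Neo1 led in sham nerves. The lowest coding members in sham nerves were the ephrin receptor gene Epha7 at 0.348 ± 0.306, the secreted semaphorin gene Sema3f at 0.630 ± 0.635 and Unc5a at 0.661 ± 0.691 CPM per kb, and each had an SD near or above its mean. Plxna4os1 (chromosome 6, 32511073 to 32515576, mm10) lies within an intron of Plxna4 on the opposite strand and shares no exon with it. It was low in every group, with 0 to 4.03 CPM per library.

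**Figure D1:**
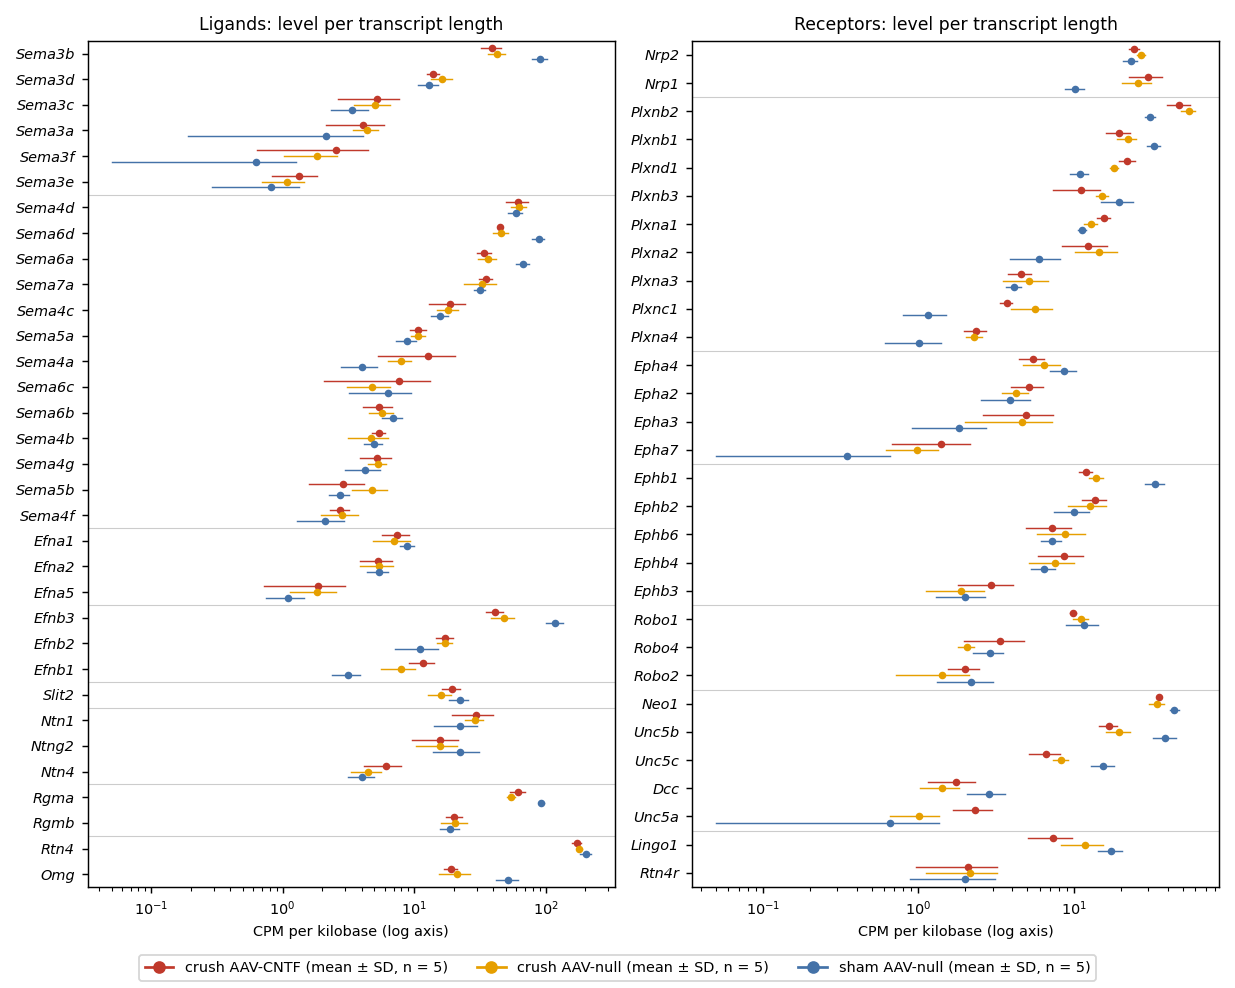
Level of each ligand (left) and receptor (right) in CPM per kilobase on a log axis, as mean and SD of 5 libraries for crush AAV-CNTF, crush AAV-null and sham AAV-null nerves, grouped by family; where mean minus SD fell below 0.05 the bar is drawn to 0.05. Rtn4 leads the ligands in every group, and Efnb3, Sema3b, Sema6d and Ephb1 sit lower in both crush groups than in sham.

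The comparison of crush with sham, both with AAV-null, asks how the injury changed the guidance genes of the nerve. The plexin genes Plxnc1, Plxna2, Plxna4, Plxnb2 and Plxnd1 and Nrp1 rose, the ephrin-B genes parted, with Efnb1 and Efnb2 higher and Efnb3 lower, and the netrin receptor genes Unc5b, Unc5c and Dcc fell together with Neo1, Rgma and Omg. Of the 64 members, 10 were higher and 13 lower by the quasi-likelihood test of edgeR, adjusted over all genes after Benjamini and Hochberg, and 41 passed in neither direction. Over all 14194 genes, 14.7% were called higher and 12.9% lower, and either way 27.6% were called, against 35.9% of the members. The median log2 fold change was 0.13 over the members and 0.00 over all genes. Among ligands 3 rose and 7 fell of 33, and among receptors 7 rose and 6 fell of 30. Groups did not overlap in 7 members that were higher and 12 that were lower, against 10.5% and 10.1% of all genes. Without crush AAV-null replicate 6, 9 members were higher and 14 lower.

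Cell type markers moved in the same comparison. All 8 oligodendrocyte markers fell, with summed levels of 20138 to 28679 CPM in crush AAV-null nerves against 48789.7 to 61978 CPM in sham nerves. All 7 astrocyte markers fell, with sums of 4662 to 6151 CPM against 7542 to 8393 CPM in sham nerves. Of 8 microglia and macrophage markers 7 rose, with sums of 1843 to 2903 CPM after crush and 560.0 to 774 CPM in sham nerves. Fibroblast and meninges markers rose in 3 of 7 (3045 to 4927 CPM against 974 to 1803 CPM in sham nerves), dividing-cell markers in 5 of 5, and endothelial markers in 1 of 7, with 1 lower. Of 6 NG2 glia markers 1 rose and 3 fell, of 6 pericyte and smooth muscle markers 2 rose and 1 fell, the neutrophil marker tested rose, and 1 of 2 Schwann cell and 1 of 4 T cell markers fell. No retinal neuron or skeletal muscle marker passed. Pdgfra stands in both the NG2 glia and the fibroblast lists. None of the markers summed was at 0 in all libraries of a group. Their part in the changes of guidance genes was not tested.

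**Figure D2:**
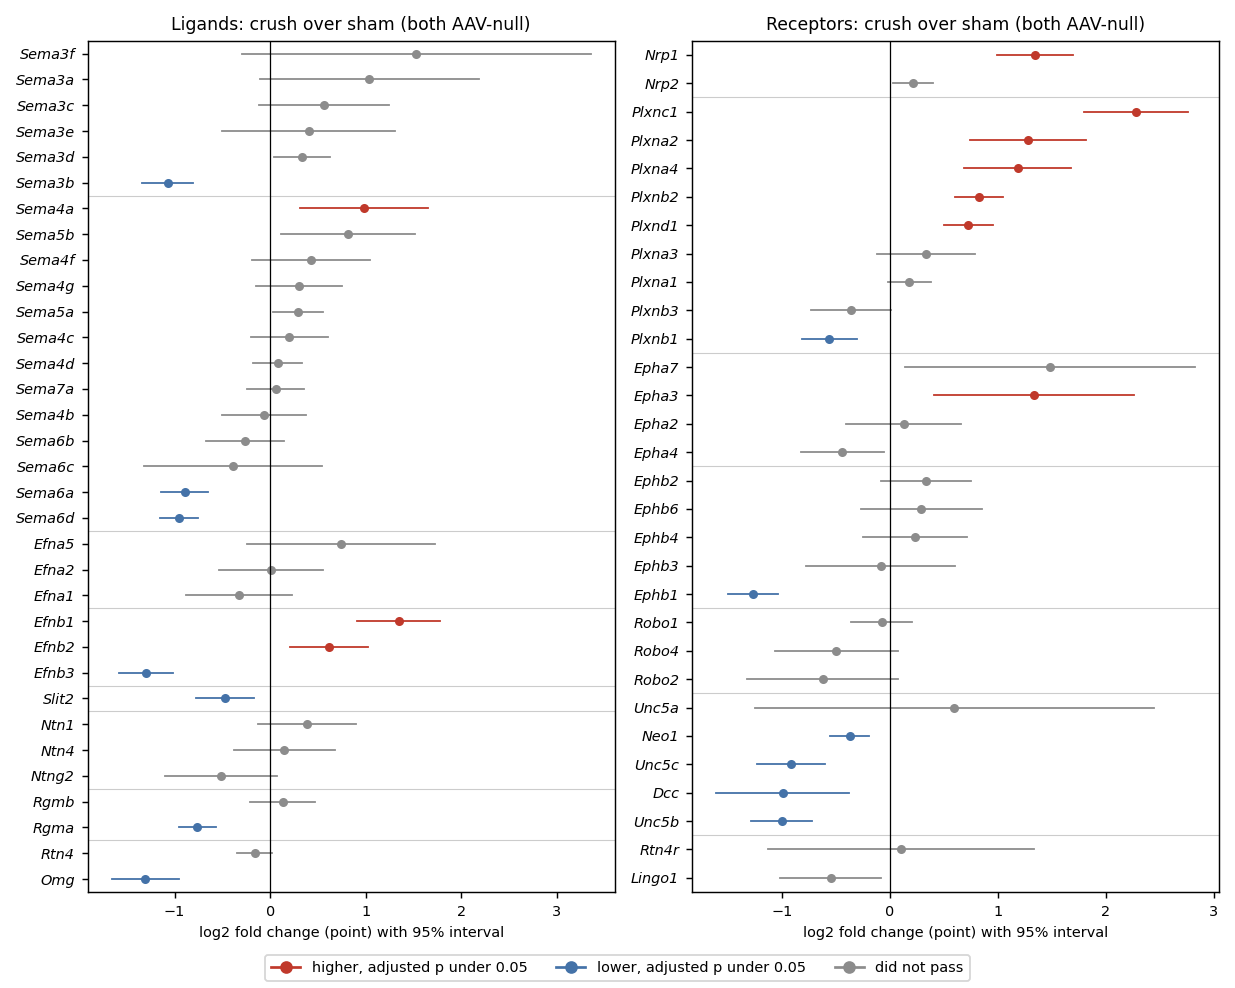
Log2 fold change of crush AAV-null over sham AAV-null for each ligand (left) and receptor (right), with the 95% interval, from 5 libraries per group. Red marks members higher and blue members lower at an adjusted p under 0.05: Plxnc1 stands farthest to the right among members that passed, at 2.28, and Omg farthest to the left, at -1.31.

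Plexins, the signalling receptors of semaphorins, rose in 5 of 9 genes and fell in 1. Plxnc1 (chromosome 10, 94790866 to 94944835, mm10), the receptor of the membrane-anchored semaphorin Sema7a, had 43.4, 46.8, 33.8, 20.6 and 47.5 CPM in the crush AAV-null libraries, against 7.35, 9.41, 11.1, 4.99 and 6.64 CPM in the sham libraries. Every crushed nerve lay above every sham nerve, with crush replicate 5 the lowest of its group. The change was 4.86-fold, a log2 fold change of 2.28 ± 0.23 (SE; edgeR adjusted p = 2.72e-07), the largest among the members that passed. Its ligand gene Sema7a did not pass, at 78.1 ± 21.1 CPM in crush AAV-null nerves and 75.0 ± 7.02 CPM in sham nerves (SD, n = 5 each; log2 fold change 0.06, 95% interval -0.24 to 0.36), and the fold change turned to -0.11 without crush AAV-null replicate 2.

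Plxna2 and Plxna4 are A-type plexins, which form receptors for class 3 semaphorins with neuropilins and also bind class 6 semaphorins. Plxna2 had 77.6, 174, 116, 153 and 172 CPM after crush, against 47.8, 70.0, 86.5, 41.7 and 39.8 CPM in sham nerves. The groups overlapped, because crush replicate 2 lay below sham replicate 4, and the log2 fold change was 1.28 ± 0.26 (SE; edgeR adjusted p = 0.000688). Plxna4 had 31.9, 30.3, 23.2, 30.1 and 29.9 CPM after crush, against 5.15, 14.4, 10.6, 17.1 and 16.6 CPM in sham nerves. These groups did not overlap, and the log2 fold change was 1.19 ± 0.24 (SE; edgeR adjusted p = 0.000665). The other A-type genes did not pass: the log2 fold change was 0.18 for Plxna1 (95% interval -0.02 to 0.38) and 0.33 for Plxna3 (-0.12 to 0.79).

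Plxnb2, a receptor of class 4 semaphorins, had 265, 321, 262, 329 and 304 CPM after crush, against 178, 175, 170.5, 148 and 164 CPM in sham nerves. Plxnd1, the receptor of Sema3e and a gene of vessel patterning, had 100.1, 113, 110.5, 116 and 107 CPM after crush, against 51.6, 75.6, 70.6, 67.1 and 65.0 CPM in sham nerves. Neither gene's groups overlapped, and the rises were small and narrow in error, 1.77-fold for Plxnb2 (edgeR adjusted p = 6.39e-06) and 1.66-fold for Plxnd1 (edgeR adjusted p = 2.64e-05). Plxnb1, the main receptor of Sema4d, moved the other way, with 165, 144, 185, 136 and 135 CPM after crush and 237, 209, 196, 239.7 and 246 CPM in sham nerves. It was 1.47-fold lower without overlap (log2 fold change -0.56 ± 0.12, SE; edgeR adjusted p = 0.00132). Plxnb3, a receptor of Sema5a, did not pass (-0.36, 95% interval -0.73 to 0.01). Summed over the 9 genes, plexin transcripts ranged over 144 to 157 CPM per kb in crush AAV-null nerves and 113 to 122 CPM per kb in sham nerves.

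Of the neuropilins, which bind class 3 semaphorins and vascular endothelial growth factors, Nrp1 rose and Nrp2 did not pass. Nrp1 (chromosome 8, 128358604 to 128503363, mm10) had 84.5, 111, 68.2, 96.0 and 70.3 CPM in crush AAV-null nerves, against 32.8, 39.2, 38.2, 31.1 and 28.1 CPM in sham nerves. No crushed nerve came near the sham range, and the log2 fold change was 1.34 ± 0.17 (SE; edgeR adjusted p = 3.53e-06). Nrp2 had 155, 147, 159, 152 and 136 CPM after crush, against 118, 151, 127, 129 and 119 CPM in sham nerves, groups that overlapped, with a log2 fold change of 0.22 ± 0.09 (SE; edgeR adjusted p = 0.0824). Without sham replicate 3 its fold change was 0.28 (edgeR adjusted p = 0.0277), which passed. Per length, Nrp1 over Nrp2 was 1.21 ± 0.283 in crush AAV-CNTF nerves, 0.964 ± 0.208 in crush AAV-null nerves and 0.439 ± 0.0438 in sham nerves (SD, n = 5 each). The ratio was thus higher in crushed than in sham nerves. Its size rests on the single length used per gene: in CPM, Nrp1 lay below Nrp2 in every library. Endothelial cells carry both neuropilins, and the summed endothelial markers were 233 to 312 CPM after crush and 174 to 226 CPM in sham nerves. Singly, 3 of the 7 markers had positive and 4 negative log2 fold changes, with a median of -0.23. In each direction 1 marker passed. The markers' part in the rise of Nrp1 was not tested.

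Among the ligands of these receptors, 1 class 3 semaphorin of 6 changed. Sema3b (chromosome 9, 107597674 to 107609229, mm10), a secreted semaphorin, had 114, 81.3, 79.7, 99.0 and 99.5 CPM after crush, against 218, 229.6, 196, 190.3 and 162 CPM in sham nerves. The groups were far apart, and the level was 2.11-fold lower after crush (log2 fold change -1.07 ± 0.13, SE; edgeR adjusted p = 2.61e-06). The other 5 class 3 genes had positive fold changes that did not pass. Sema3a, the repellent for which growth cone collapse was described, had 11.1, 19.6, 16.9, 20.5 and 19.7 CPM after crush, against 14.1, 6.46, 19.0, 2.31 and 0.891 CPM in sham nerves. Sham values spread widely, with replicate 4 as high as the crushed nerves, and the log2 fold change was 1.04 ± 0.55 (SE; edgeR adjusted p = 0.181). In the fit without sham replicate 4, Sema3a passed as higher (1.57, edgeR adjusted p = 0.0438). Sema3b made up 59.8% ± 5.48 of the summed class 3 level per length in crush AAV-null nerves and 82.0% ± 2.97 in sham nerves (SD, n = 5 each), and Sema3d took 22.9% ± 3.77 after crush and 11.8% ± 1.04 in sham nerves.

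In the membrane-bound classes 4 to 7, 1 gene rose and 2 fell of 13. Sema6d and Sema6a encode transmembrane ligands of A-type plexins. Sema6d (chromosome 2, 124089969 to 124667770, mm10) had 225, 198, 277, 212 and 219.9 CPM after crush, against 462, 455, 377, 408 and 493 CPM in sham nerves, and Sema6a had 134 to 202 CPM against 259.6 to 351 CPM in sham nerves. In neither case did the groups overlap. Sema6d was 1.94-fold lower (edgeR adjusted p = 2.5e-07) and Sema6a 1.86-fold lower (edgeR adjusted p = 7e-06). Per length, Sema6d over Plxna4 was 20.5 ± 5.73 in crush AAV-null nerves and 108 ± 69.3 in sham nerves (SD, n = 5 each).

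Sema4a, a semaphorin known from immune cells, had 16.3, 11.2, 12.2, 17.0 and 11.5 CPM after crush, against 6.66, 6.69, 6.98, 10.1 and 4.13 CPM in sham nerves. All crushed nerves lay above the sham range, and the log2 fold change was 0.98 ± 0.32 (SE; edgeR adjusted p = 0.027). This call was lost without crush AAV-null replicate 2 or 5 or sham replicate 2 or 6, with edgeR adjusted p of 0.0575, 0.0654, 0.0518 and 0.0734, and log2 fold changes of 0.91, 0.89, 0.97 and 0.84. Sema4d, the most abundant semaphorin after crush, had 290.0, 222, 251, 208 and 255 CPM in crush AAV-null nerves, against 229, 217, 228, 208 and 279 CPM in sham nerves. Its groups overlapped, and the fold change of 0.08 had a 95% interval of -0.18 to 0.34. The remaining 9 genes of these classes ranged from -0.39 (Sema6c) to 0.82 (Sema5b) on the log2 scale without passing. Sema5b, a transmembrane semaphorin, was close to the threshold (edgeR adjusted p = 0.0801). It passed as higher in the fit without crush AAV-CNTF replicate 5 (0.82, edgeR adjusted p = 0.0202) and in the fit of the 2 groups alone (0.81, edgeR adjusted p = 0.0314), and the authors' deposited table gives an adjusted p of 0.0256.

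**Figure D3:**
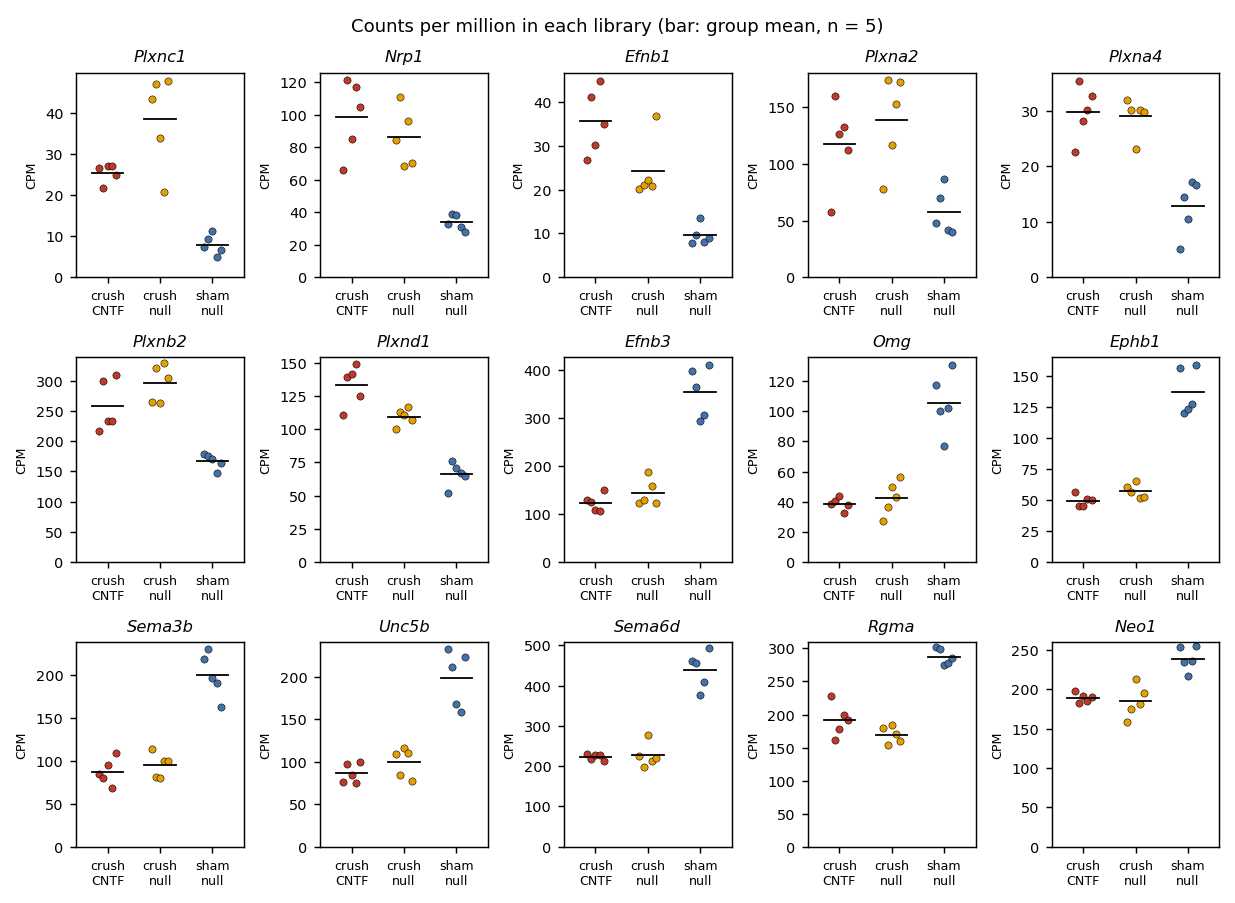
Level in CPM of 15 members in each library, with the group mean as a bar, for crush AAV-CNTF, crush AAV-null and sham AAV-null nerves (n = 5 each; every axis starts at 0). The sham points lie below both crush groups for Plxnc1, Nrp1, Efnb1, Plxna4, Plxnb2 and Plxnd1, and above them for Efnb3, Omg, Ephb1, Sema3b, Unc5b, Sema6d, Rgma and Neo1.

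The 3 ephrin-B genes, transmembrane ligands of EphB receptors, all passed, 2 higher and 1 lower. Efnb3 (chromosome 11, 69554092 to 69560205, mm10), which is made by oligodendrocytes and inhibits axon growth, had 122, 129.9, 187, 157 and 123 CPM after crush, against 397, 364, 294, 306 and 411 CPM in sham nerves. The highest crushed nerve stayed below the lowest sham nerve, and the level was 2.46-fold lower (log2 fold change -1.30 ± 0.13, SE; edgeR adjusted p = 2.94e-07). Efnb1 (chromosome X, 99136130 to 99148991, mm10), whose upstream sequence is printed above, had 20.2, 21.1, 22.1, 20.9 and 36.7 CPM after crush, against 7.74, 9.55, 13.5, 8.04 and 8.91 CPM in sham nerves. Crush replicate 6 was well above the other 4 crushed nerves, which themselves lay above all sham nerves. The log2 fold change was 1.34 ± 0.21 (SE; edgeR adjusted p = 4.95e-05), and 1.14 without that library (edgeR adjusted p = 0.000161).

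Efnb2, a ligand of EphB receptors in vessels and at the optic chiasm, had 61.0, 73.5, 56.1, 76.8 and 72.3 CPM after crush, against 48.4, 63.9, 52.5, 33.5 and 23.9 CPM in sham nerves. The groups overlapped in sham replicate 3, and the log2 fold change was 0.61 ± 0.20 (SE; edgeR adjusted p = 0.0226). Without crush AAV-null replicate 5, sham replicate 5 or sham replicate 6 it was 0.57, 0.53 and 0.45 and no longer passed (edgeR adjusted p = 0.0557, 0.0647 and 0.0502). Together the opposite moves changed the make-up of the family. Per length, Efnb3 over Efnb1 was 3.71 ± 0.986 in crush AAV-CNTF nerves, 6.46 ± 1.98 in crush AAV-null nerves and 40.0 ± 11.4 in sham nerves (SD, n = 5 each). Efnb1 took 10.9% ± 3.40 of the ephrin-B sum in crush AAV-null nerves and 2.41% ± 0.810 in sham nerves, while Efnb3 took 65.5% ± 6.15 after crush and 89.1% ± 3.56 in sham nerves. The sum itself ranged over 62.8 to 84.0 CPM per kb after crush and 113 to 148 CPM per kb in sham nerves. None of the 3 ephrin-A genes passed, and their sums of 12.5 to 16.7 CPM per kb after crush and 12.3 to 16.5 CPM per kb in sham nerves overlapped.

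Among the Eph receptors, 1 of 5 EphB genes fell and 1 of 4 EphA genes rose. Ephb1 (chromosome 9, 101922128 to 102354693, mm10), the receptor that turns ventrotemporal retinal axons to the same side of the brain at the mouse optic chiasm, had 60.9, 56.7, 65.1, 51.4 and 52.4 CPM after crush, against 156, 120.2, 124, 128 and 159 CPM in sham nerves. The separation was complete, and the level was 2.40-fold lower (log2 fold change -1.26 ± 0.11, SE; edgeR adjusted p = 4.92e-08). Ephb2, its close relative, did not pass (0.34, 95% interval -0.08 to 0.76), so that Ephb1 over Ephb2 per length was 1.21 ± 0.503 in crush AAV-null nerves and 3.52 ± 1.02 in sham nerves (SD, n = 5 each). Ephb3, Ephb4 and Ephb6 had log2 fold changes of -0.09, 0.23 and 0.29 and did not pass. In the fit without crush AAV-null replicate 3, Ephb2 passed as higher (0.50, edgeR adjusted p = 0.0392).

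Epha3 had 6.50, 43.5, 19.9, 21.3 and 34.7 CPM after crush, against 11.9, 14.0, 14.7, 5.52 and 3.85 CPM in sham nerves. Crush replicate 2 lay within the sham range while replicates 3 and 6 were far above it, and the log2 fold change was 1.34 ± 0.45 (SE; edgeR adjusted p = 0.0291). The call was lost without crush AAV-null replicate 3 (log2 fold change 1.05, edgeR adjusted p = 0.104) or 6 (1.19, 0.0721), and without sham replicate 5 (1.19, 0.0743) or 6 (1.13, 0.0728). Epha4, which binds ephrins of both classes, had 20.7, 31.7, 29.1, 24.9 and 41.2 CPM after crush, against 34.9, 50.7, 43.6, 39.6 and 31.4 CPM in sham nerves. Crush replicates 3 and 6 reached into the sham range, and the fold change of -0.44 ± 0.18 (SE; edgeR adjusted p = 0.0832) did not pass. Without crush AAV-null replicate 6 it was -0.59 and passed (edgeR adjusted p = 0.019). Epha7 passed as higher in the fit without sham replicate 4 (2.08, edgeR adjusted p = 0.0255), against 1.48 with all libraries, where edgeR did not call it. DESeq2 with all libraries called it higher (1.49, DESeq2 adjusted p = 0.0498). Epha7 was low in sham nerves and may have been listed through crushed nerves alone, which favours a rise.

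Receptors of netrins and RGM fell in 4 of 5 genes, while the 3 netrin genes did not pass. Unc5b (chromosome 10, 60762593 to 60831581, mm10), a repulsive netrin receptor, had 109, 84.5, 116, 111 and 77.3 CPM after crush, against 233, 212, 168, 159 and 223 CPM in sham nerves. The groups did not overlap, and the level was 2.00-fold lower (95% interval of the log2 fold change -1.28 to -0.72; edgeR adjusted p = 1.01e-05). Unc5c, of the same receptor family, had 51.5, 45.2, 48.6, 38.1 and 45.4 CPM after crush, against 77.0, 87.6, 68.7, 89.3 and 108 CPM in sham nerves, also without overlap (log2 fold change -0.91 ± 0.15, SE; edgeR adjusted p = 8.6e-05). Dcc, the attractive netrin receptor that is needed at the optic disc in mice for axons to leave the eye, was a low member, with 7.73, 7.69, 5.13, 8.53 and 4.23 CPM after crush and 13.0, 13.5, 10.6, 9.97 and 19.1 CPM in sham nerves. Its log2 fold change was -0.99 ± 0.30 (SE; edgeR adjusted p = 0.0149), and without sham replicate 6, the highest sham nerve, it was -0.82 (edgeR adjusted p = 0.0604).

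Unc5a stood near the detection floor, with 1.22 to 3.08 CPM after crush and 0 to 3.22 CPM in sham nerves, 2 of them at 0. Netrin-1 (Ntn1), the ligand, had 71.5, 84.0, 99.4, 104 and 106 CPM after crush, against 76.5, 72.2, 102, 74.5 and 30.1 CPM in sham nerves. Only sham replicate 6 stood clearly below the crushed nerves, and the fold change of 0.39 (95% interval -0.13 to 0.90) did not pass. Ntn4, a netrin of basement membranes, and Ntng2, a netrin-G on the cell surface, had log2 fold changes of 0.15 (95% interval -0.38 to 0.68) and -0.52 (-1.11 to 0.07). Per length, Unc5b over Ntn1 was 0.685 ± 0.179 in crush AAV-null nerves and 2.14 ± 1.43 in sham nerves (SD, n = 5 each).

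Neo1, receptor of RGM proteins and of netrins, had 158, 175, 213, 182 and 195 CPM after crush, against 254, 235, 217, 236 and 255 CPM in sham nerves. The fall was small, 1.29-fold, with the highest crushed nerve just below the lowest sham nerve (edgeR adjusted p = 0.00228). Its repulsive ligand gene Rgma (chromosome 7, 73375509 to 73419899, mm10) had 180.3, 155, 184, 170.4 and 159.6 CPM after crush, against 302, 299, 274, 278 and 285 CPM in sham nerves. Both groups were tight and far apart, and the log2 fold change was -0.76 ± 0.09 (SE; edgeR adjusted p = 2.28e-06). Rgmb, a co-receptor for bone morphogenetic proteins, did not pass (0.13, 95% interval -0.21 to 0.47).

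Slit2 was the only Slit gene among the members. It had 99.2, 72.8, 63.3, 89.9 and 104 CPM after crush, against 148, 94.0, 115, 121 and 117 CPM in sham nerves. The groups overlapped, and the log2 fold change was -0.47 ± 0.15 (SE; edgeR adjusted p = 0.0195). Without crush AAV-null replicate 3 or 4 or sham replicate 2 it was -0.42, -0.38 and -0.38 and did not pass (edgeR adjusted p = 0.0564, 0.0587 and 0.0677). None of the 3 Robo genes passed. Robo1, the most abundant of these Slit receptors, had 78.1, 73.2, 79.1, 96.6 and 79.7 CPM after crush, against 91.4, 87.9, 112, 79.9 and 56.8 CPM in sham nerves, with a fold change of -0.07 (95% interval -0.35 to 0.21) that turned to 0.042 without sham replicate 4. Robo2 and the vessel gene Robo4 had log2 fold changes of -0.62 and -0.49. Robo2 passed as lower in the fit without crush AAV-null replicate 3 (-0.94, edgeR adjusted p = 0.0428).

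Of the 2 myelin-derived inhibitors, Omg fell and Rtn4 did not pass. Counts were per gene, so transcript forms of Rtn4 were not told apart. Omg (chromosome 11, 79500982 to 79504084, mm10) had 27.3, 36.6, 50.1, 42.9 and 56.4 CPM after crush, against 117, 100.4, 77.3, 102 and 131 CPM in sham nerves. Sham replicate 4 was the lowest of its group and still above every crushed nerve, and the level was 2.47-fold lower (log2 fold change -1.31 ± 0.17, SE; edgeR adjusted p = 5.93e-06), the largest fall of a member. Rtn4 had 699, 651, 732, 677 and 683 CPM after crush, against 828, 833, 710.2, 673 and 812 CPM in sham nerves. The groups overlapped, and the fold change of -0.16 (95% interval -0.35 to 0.02) did not pass. Rtn4 over Omg per length was accordingly 9.12 ± 2.73 in crush AAV-null nerves and 3.96 ± 0.659 in sham nerves (SD, n = 5 each). Of the receptor complex, Rtn4r was low, at 3.73 ± 1.78 CPM after crush and 3.46 ± 1.93 CPM in sham nerves (SD, n = 5 each). Its fold change of 0.11 (95% interval -1.13 to 1.34) changed sign without crush AAV-null replicate 4 (-0.06) or 5 (-0.06) or sham replicate 4 (-0.18). Lingo1 had 15.5, 17.1, 29.4, 30.9 and 26.9 CPM after crush, against 44.3, 27.0, 36.2, 32.8 and 34.6 CPM in sham nerves, and its fold change of -0.55 ± 0.22 (SE; edgeR adjusted p = 0.0779) did not pass.

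Genes that work with the guidance receptors were read from a list of 84 partners and effectors, 80 of them tested. Of these, 21 were higher and 18 lower after crush, against 14.7% and 12.9% of all genes, and the median log2 fold change was 0.02. Without crush AAV-null replicate 6, 20 were higher and 20 lower. Among the relatives and co-receptors of the Nogo receptor, with the further myelin ligand Mag, 4 rose and 1 fell of 6. Pirb, an immune receptor that also binds the myelin inhibitors, averaged 18.9 ± 4.83 CPM in crush AAV-null nerves and 5.82 ± 1.59 CPM in sham nerves (SD, n = 5 each), a log2 fold change of 1.70 ± 0.27 (SE; edgeR adjusted p = 5.56e-05). Rtn4rl2, a Nogo receptor relative that binds Mag, had 223 counts over the 5 crush AAV-null libraries and 2 over the 5 sham libraries (edgeR adjusted p = 0.00114). With so few sham counts it can have been listed only through crushed nerves, which favours a rise over sham. Its call was lost under limma-voom with sample quality weights (limma-voom adjusted p = 0.0709). Mag itself, also 1 of the oligodendrocyte markers, was lower, at 941 ± 108 CPM after crush and 1485 ± 208 CPM in sham nerves (SD, n = 5 each).

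Semaphorin co-receptors and alternative partners changed in 5 of 11 genes. Cd72, a Sema4d receptor of immune cells, averaged 58.3 ± 10.9 CPM after crush and 13.0 ± 6.99 CPM in sham nerves, and Itgb1, an integrin subunit of the Sema7a receptor, 354 ± 53.3 CPM after crush and 225 ± 25.4 CPM in sham nerves (SD, n = 5 each). Cntn2, an axonal and glial adhesion molecule, and Flt1, a receptor of vascular endothelial growth factor, fell, by 2.19-fold and 1.73-fold (edgeR adjusted p = 8.93e-08 and 0.000964). Of 13 netrin, Slit and RGM partners none rose and 2 fell, Bmpr1b, a receptor of bone morphogenetic proteins, by 2.63-fold and Flrt1, an Unc5 partner, by 2.07-fold (edgeR adjusted p = 3.94e-06 and 9.32e-05). Of 10 Eph and ephrin partners 5 rose and 1 fell. Sdcbp, a scaffold that binds ephrin-B tails, rose 2.51-fold and Fyn, a kinase downstream of Eph and plexin receptors, 1.78-fold (edgeR adjusted p = 3.79e-09 and 4.48e-07), while Rgs3, which acts in ephrin-B reverse signalling, fell 1.32-fold (edgeR adjusted p = 0.0145).

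Cytoplasmic effectors rose in 10 and fell in 11 of 40 genes. Dpysl3 and Dpysl2 encode collapsin response mediator proteins, which relay semaphorin signals to the cytoskeleton, and they moved apart. Dpysl3 averaged 351 ± 61.3 CPM after crush and 156 ± 32.4 CPM in sham nerves (SD, n = 5 each; edgeR adjusted p = 4.77e-06), and Dpysl2 662 ± 68.4 CPM after crush and 989.5 ± 119 CPM in sham nerves (edgeR adjusted p = 7.47e-05). Fes, a kinase that acts with plexin A receptors, rose 2.71-fold, and Srgap3, a GTPase-activating protein of the Slit-Robo pathway, fell 1.82-fold (edgeR adjusted p = 1.75e-05 and 7.04e-07). The partner lists were drawn up with earlier results of these libraries known, and their counts are a description.

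The comparison of AAV-CNTF with AAV-null in crushed nerves asks whether the cytokine changed the guidance genes at the time of sampling. No member passed in either direction by edgeR's test, where 6 of all 14194 genes (0.0423%) were higher and 2 (0.0141%) lower. At an unadjusted edgeR p under 0.05 there were 9 members, against 7.69% of all genes, and DESeq2 and the authors' deposited table also called no member. The median log2 fold change was 0.01 over the members and 0.00 over all genes. A count of 0 at this spread does not show that the levels were alike, and the 95% intervals give the room left. They were narrow for abundant members: -0.22 to 0.18 for Sema6d, -0.14 to 0.21 for Neo1, -0.25 to 0.12 for Rtn4 and -0.01 to 0.37 for Rgma on the log2 scale. They were wide for low members, such as -1.29 to 2.25 for Sema3f and -1.27 to 1.19 for Rtn4r.

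**Figure D4:**
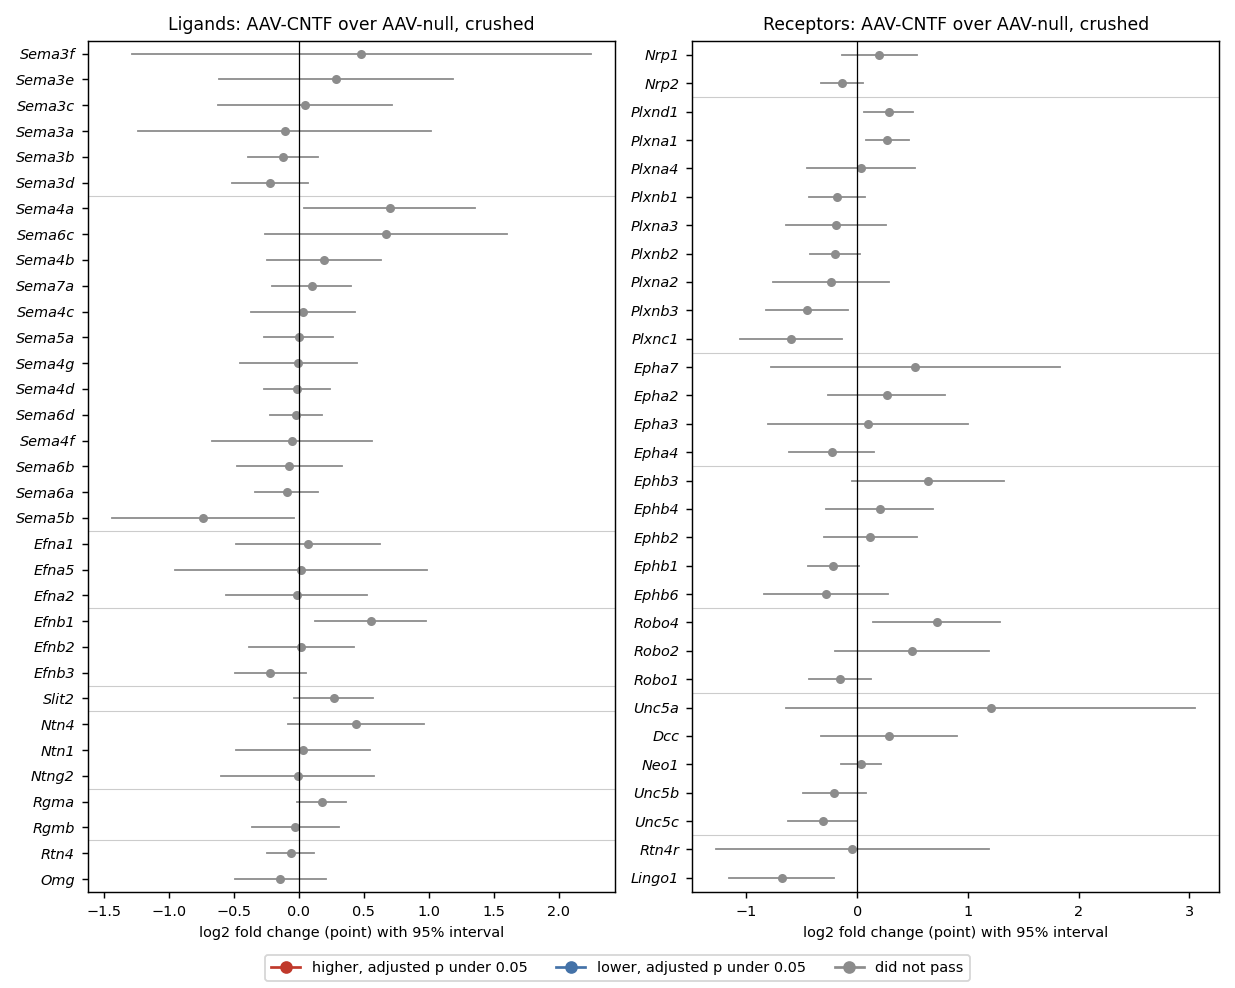
Log2 fold change of crush AAV-CNTF over crush AAV-null for each ligand (left) and receptor (right), with the 95% interval, from 5 libraries per group. Every point is grey because no member passed at an adjusted p under 0.05; the intervals of 9 members, Lingo1 and Efnb1 among them, leave 0 out before adjustment.

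The 5 members with the smallest unadjusted p were Lingo1, Plxna1, Plxnc1, Efnb1 and Plxnd1. Lingo1, the Nogo receptor's partner, had 16.5, 22.1, 11.7, 10.4 and 13.8 CPM in crush AAV-CNTF nerves, against 15.5, 17.1, 29.4, 30.9 and 26.9 CPM in crush AAV-null nerves. AAV-CNTF replicates 4, 5 and 6 lay below every AAV-null value and replicates 2 and 3 within their range, and the log2 fold change was -0.68 ± 0.23 (SE; edgeR adjusted p = 0.381). Plxna1, an A-type plexin, had 122, 111, 137, 122 and 107 CPM with AAV-CNTF, against 106, 98.0, 98.6, 107 and 84.5 CPM with AAV-null. AAV-CNTF replicates 2 to 5 lay above every AAV-null value and replicate 6 just within them, and the log2 fold change was 0.27 ± 0.09 (SE; edgeR adjusted p = 0.424).

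Plxnc1, the member with the largest rise after crush, had 26.5, 21.7, 27.0, 26.9 and 24.9 CPM with AAV-CNTF, against 43.4, 46.8, 33.8, 20.6 and 47.5 CPM with AAV-null. The AAV-CNTF values were tight and lay below 4 of the 5 AAV-null values (log2 fold change -0.60 ± 0.22, SE; edgeR adjusted p = 0.464). Efnb1 had 26.8, 41.1, 30.2, 44.8 and 34.9 CPM with AAV-CNTF, against 20.2, 21.1, 22.1, 20.9 and 36.7 CPM with AAV-null, so that the groups met only at AAV-null replicate 6. Its log2 fold change was 0.55 ± 0.20 (SE; edgeR adjusted p = 0.464), and 0.75 without that library (edgeR adjusted p = 0.205). Plxnd1 had 110.4, 139, 142, 149 and 125 CPM with AAV-CNTF, against 100.1, 113, 110.5, 116 and 107 CPM with AAV-null, where AAV-CNTF replicates 3 to 6 lay above every AAV-null value (log2 fold change 0.28 ± 0.11, SE; edgeR adjusted p = 0.477).

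The other 4 members under that p were Sema4a (0.70 ± 0.32), Sema5b (-0.74 ± 0.34), Plxnb3 (-0.45 ± 0.18) and the vessel gene Robo4 (0.72 ± 0.27; log2 fold change ± SE for each). Sema4a spread widely with AAV-CNTF, at 24.8, 16.6, 43.3, 16.4 and 9.46 CPM, against 11.2 to 17.0 CPM with AAV-null. Robo4 had 7.81, 9.58, 17.3, 18.4 and 8.46 CPM with AAV-CNTF and 6.31, 7.24, 7.99, 8.71 and 7.21 CPM with AAV-null, and the summed endothelial markers were 198 to 472 CPM with AAV-CNTF and 233 to 312 CPM with AAV-null; their part in the Robo4 values was not tested. Unc5a was the only member whose groups did not overlap, against 0.838% of all genes higher and 0.712% lower, with 3.69, 6.56, 3.69, 5.28 and 3.83 CPM with AAV-CNTF and 3.08, 1.64, 2.09, 1.94 and 1.22 CPM with AAV-null. It is a low gene, and its log2 fold change of 1.21 ± 0.89 had an adjusted p of 0.851 by edgeR. At these levels Unc5a may have been listed through the AAV-CNTF group alone, and such a listing favours a separation of this kind.

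Marker sums in these groups were 16344 to 23774 CPM with AAV-CNTF and 20138 to 28679 CPM with AAV-null for oligodendrocytes, and 1729 to 2363 CPM with AAV-CNTF and 1843 to 2903 CPM with AAV-null for microglia and macrophages. Fibroblast and meninges markers summed to 2988 to 7301 CPM with AAV-CNTF and 3045 to 4927 CPM with AAV-null, and T cell markers to 13.9 to 41.7 CPM with AAV-CNTF and 1.38 to 10.1 CPM with AAV-null. No marker of these lists passed, and their part in the members' values was not tested. In the partner and effector list, none of 80 genes rose and 1 fell, the kinase gene Fyn. It averaged 111 ± 10.2 CPM with AAV-CNTF and 160.5 ± 8.29 CPM with AAV-null (SD, n = 5 each), a log2 fold change of -0.53 ± 0.09 (SE; edgeR adjusted p = 0.0261). The groups did not overlap, and 90.3 ± 6.09 CPM in sham nerves lay below both. The call did not hold without crush AAV-CNTF replicate 4 (edgeR adjusted p = 0.0812) or crush AAV-null replicate 2, 4 or 5 (0.0639, 0.0727 and 0.103), with log2 fold changes of -0.51, -0.53, -0.51 and -0.52.

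Crush AAV-CNTF nerves were also compared with sham nerves, the same sham libraries as in the comparison above, so the values are set side by side only. Of the 64 members 12 were higher and 14 lower by edgeR, against 17.0% and 14.3% of all genes (31.3% either way). Log2 fold changes over sham (± SE) were 1.68 ± 0.23 with AAV-CNTF and 2.28 ± 0.23 with AAV-null for Plxnc1, and 1.90 ± 0.21 with AAV-CNTF and 1.34 ± 0.21 with AAV-null for Efnb1. For Nrp1 they were 1.54 ± 0.17 with AAV-CNTF and 1.34 ± 0.17 with AAV-null, and for Plxnd1 1.01 ± 0.11 with AAV-CNTF and 0.73 ± 0.11 with AAV-null. Among genes that fell, Efnb3 stood at -1.52 ± 0.13 with AAV-CNTF and -1.30 ± 0.13 with AAV-null, Ephb1 at -1.48 ± 0.11 with AAV-CNTF and -1.26 ± 0.11 with AAV-null, and Omg at -1.45 ± 0.17 with AAV-CNTF and -1.31 ± 0.17 with AAV-null. Efnb3 had 128, 124, 109, 107 and 150.3 CPM in the AAV-CNTF nerves and Ephb1 had 56.2, 44.9, 45.2, 50.5 and 49.6 CPM, all below the sham values given before.

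For 7 members the call over sham differed between the crush groups, and in each the direct comparison of AAV-CNTF with AAV-null did not pass. Plxna1 was higher over sham with AAV-CNTF (0.45 ± 0.09, SE; edgeR adjusted p = 0.000828) and stood at 0.18 ± 0.09 with AAV-null (edgeR adjusted p = 0.173). Lingo1 was lower with AAV-CNTF (-1.23 ± 0.23, SE; edgeR adjusted p = 0.000261), against -0.55 ± 0.22 with AAV-null, and every AAV-CNTF nerve lay below every sham nerve. Plxnb3 (-0.81 ± 0.18) and Epha4 (-0.67 ± 0.18) were lower and Epha7 (2.01 ± 0.65) higher over sham with AAV-CNTF (SE; edgeR adjusted p = 0.00128, 0.00782 and 0.023), against -0.36 ± 0.18, -0.44 ± 0.18 and 1.48 ± 0.65 with AAV-null. Dcc and Slit2 were at -0.71 ± 0.29 and -0.20 ± 0.15 over sham with AAV-CNTF (edgeR adjusted p = 0.0749 and 0.329), against -0.99 ± 0.30 and -0.47 ± 0.15 with AAV-null. Without crush AAV-CNTF replicate 2, Dcc over sham was -0.88 with AAV-CNTF and passed (edgeR adjusted p = 0.0373). It also passed as lower there with all libraries under limma-voom with sample quality weights (-0.78, limma-voom adjusted p = 0.0287).

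Among these, the call of Epha7, a low gene with 2.71 to 10.8 CPM in AAV-CNTF nerves and 0.0461 to 4.24 CPM in sham nerves, was lost without AAV-CNTF replicate 4 (log2 fold change 1.82, edgeR adjusted p = 0.0585) or 5 (1.83, 0.0562) or sham replicate 5 (1.85, 0.0534). At these levels Epha7 may have been listed through crushed nerves alone, and such a listing favours a rise over sham. Efnb2 and Epha3 were higher over sham with AAV-CNTF (0.63 ± 0.20 and 1.44 ± 0.45, SE; edgeR adjusted p = 0.0171 and 0.0173). The Efnb2 call was lost without sham replicate 5 (0.54, edgeR adjusted p = 0.0512) and the Epha3 call without AAV-CNTF replicate 3 (1.26, edgeR adjusted p = 0.0503).

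In the authors' deposited table, made with their own settings, 11 members were higher and 13 lower after crush with AAV-null over sham at an adjusted p under 0.05, against 14.1% and 12.5% of the genes with a value there. For Plxnc1 the authors' deposited table gives a log2 fold change of 2.29, for Efnb1 1.35 and for Omg -1.30. With AAV-CNTF over AAV-null the authors' deposited table calls no member, with 0.415% of genes higher and 0.141% lower, and gives Lingo1 as -0.68 with an adjusted p of 0.372.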

How the data were processed

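RNA of 15 optic nerves was sequenced, 5 per group as the titles give them. Which of the 2 library kits named in the labels' protocols served which nerve, the annotation and the strand setting are not stated in the sources used here. Reads were trimmed, aligned and counted with Trimmomatic 0.32, STAR 2.5.3a and RSEM 1.2.31 on mm10, per the submitters' processing notes. The deposited table holds RSEM's expected counts per gene, the authors' FPKM values, and, per the file headers, the authors' log2 fold changes and adjusted p-values; the notes name DESeq2 and R 3.2.3. Expected counts, 13.7% to 18.3% of them not whole per library, were rounded here.

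Genes passing filterByExpr (14194 of 14237) were fitted in edgeR 4.0.16 (R 4.3.3; TMM, quasi-likelihood, 15 libraries, 12 residual degrees of freedom), with p-values adjusted over all tested genes (threshold 0.05). CPM use TMM-scaled totals, 95% intervals are unadjusted, and lengths come from the deposited FPKM. Positions are GENCODE M21; upstream windows are RefSeq's. Alternatives covered RLE and upper quartile scaling, filters, abundant genes left out, a 2-group fit, a replicate block, DESeq2 1.42.0, limma-voom 3.58.1 and each library left out. No pair of libraries of the same group was alike within sampling noise, and pairs between groups were not checked. The fit was tested on simulated data.

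The members and lists were chosen with earlier results of these data known. Named were the 12 largest called changes per direction after crush, the 5 smallest p for AAV-CNTF over AAV-null, and the most abundant gene of each family; others with values were added after they were seen. Marker lists covered oligodendrocyte, NG2 glia, astrocyte, microglia and macrophage, endothelial, pericyte, fibroblast, Schwann, dividing, retinal neuron, muscle, T cell and neutrophil genes. The labels call the nerves biological replicates; p-values measure the spread between them.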

Additional observations from a re-analysis of the deposited data

Results flagged for a closer look

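Among the 99 groups of 5 libraries examined for members, 5 had a library far from the other 4. Each group held the values of 1 gene in 1 condition, and not every member was examined in this way. Chance flags about 1 in 20 groups. Efnb1 stood at 36.7 CPM in crush AAV-null replicate 6, against 20.2 to 22.1 CPM in the other 4. Plxna4 stood at 23.2 CPM in crush AAV-null replicate 4, against 29.9 to 31.9 CPM in the others. Robo1 stood at 96.6 CPM in crush AAV-null replicate 5, against 73.2 to 79.7 CPM in the others. Efna1, a GPI-anchored ephrin, stood at 5.70 CPM in crush AAV-CNTF replicate 3, against 9.78 to 10.9 CPM in the others of that group. It also stood at 9.01 CPM in sham replicate 5, against 11.4 to 12.3 CPM in the other sham nerves. Crush AAV-null replicate 6 is the library that stands apart in the principal component analysis.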

How the results depend on the processing

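Of the 23 member calls after crush with AAV-null over sham, 18 held under every alternative run, and those of Epha3, Sema4a, Efnb2, Dcc and Slit2 were lost under at least 1. Leaving out 1 library at a time gave 7 (without sham replicate 6) to 12 (without sham replicate 4) members higher and 12 to 14 lower. Under limma-voom with sample quality weights Epha3 (1.24, adjusted p = 0.102) and Sema4a (1.10, adjusted p = 0.0535) were lost and Nrp2, Epha4, Lingo1 and Sema3a gained, and among the partners Rtn4rl2 was lost. A fit without replicate 6 of crush AAV-null and replicate 4 of crush AAV-CNTF, chosen after seeing the data, gave 8 higher and 14 lower, without Epha3 and Efnb2. Crush over sham fold changes of 8 members changed sign when 1 library was left out, none past the threshold: Robo1 (-0.19 to 0.042 over those fits), Rtn4r (-0.18 to 0.31), Sema4b (-0.26 to 0.077), Sema7a (-0.11 to 0.15), Efna2 (-0.16 to 0.12), Epha2 (-0.075 to 0.22), Ephb3 (-0.30 to 0.15) and Plxna4os1 (-0.50 to 1.07). Efna2 also turned under upper quartile scaling (-0.016) and limma-voom (-0.056), and Plxna4os1 without both libraries named above (-0.10). The cause was not tested.

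For AAV-CNTF over AAV-null no alternative called a member. Of the members whose fold changes were followed there, Rtn4r (-0.34 to 0.16), Neo1 (-0.014 to 0.092) and Sema6d (-0.067 to 0.061) changed sign when 1 library was left out. Over all genes, 6 were higher by edgeR, against 1 with only the 2 groups compared, 55 with DESeq2, 3 with limma-voom, 2 without both libraries, and 1 to 38 with 1 library left out. The 2 genes lower became 0 with only the 2 groups compared, 23 with DESeq2, 0 without both libraries and 0 to 3 with 1 left out. The partner count of 1, Fyn, became 0 with only the 2 groups compared and without both libraries, and 0 to 1 with 1 left out.

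The replicate numbers showed no strong pairing of the libraries: over 15 same-numbered pairs the correlation of deviations ran from -0.0525 to 0.113. In 3 of the 15 pairs the first library correlated best with the library of its own number. These were crush AAV-CNTF with crush AAV-null in replicates 2, 3 and 5 (r = 0.113, 0.0343 and 0.0353). Replicates 4 and 6 of these groups gave 0.00524 and 0.0103, and a weak pairing between the crush groups was not tested further. With the replicate block 9 members were higher and 13 lower after crush, Epha3 being lost (adjusted p = 0.052), and 14 of all genes were higher with AAV-CNTF over AAV-null.

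Other normalizations shifted the median of all genes by -0.0416 at most on the log2 scale. In simulated data the test recovered 23.9% of 1.5-fold, 46.3% of 2-fold and 80.3% of 4-fold changes between crush AAV-null and sham. Those changes were given to a small set of genes drawn from all tested genes. Far fewer genes changed there than were called in these data, so the adjusted threshold was stricter. The rates therefore do not carry over to the members, whose small changes can still go unseen.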

Other observations

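The ephrin-A ligands, anchored to the membrane by a lipid, were low in all groups. Per length their sums ranged over 10.7 to 18.5 CPM per kb in crush AAV-CNTF nerves, 12.5 to 16.7 in crush AAV-null nerves and 12.3 to 16.5 in sham nerves. Efna1 averaged 9.46 ± 2.16 CPM in crush AAV-CNTF nerves, 9.02 ± 2.81 in crush AAV-null nerves and 11.3 ± 1.34 in sham nerves (SD, n = 5 each). Among class 3 semaphorins, Sema3c averaged 18.2 ± 8.92 CPM in crush AAV-CNTF nerves, 17.6 ± 5.24 in crush AAV-null nerves and 11.9 ± 3.70 in sham nerves. Sema3d averaged 64.4 ± 7.24 CPM in crush AAV-CNTF nerves, 75.2 ± 13.8 in crush AAV-null nerves and 59.6 ± 10.7 in sham nerves. Sema3e, the ligand of Plxnd1, averaged 8.80 ± 3.31 CPM in crush AAV-CNTF nerves, 7.21 ± 2.53 in crush AAV-null nerves and 5.44 ± 3.49 in sham nerves. None of these passed in any of the 3 comparisons by edgeR.

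Sema5a, a ligand of Plxnb3, averaged 115 ± 16.3 CPM in crush AAV-CNTF nerves, 115 ± 14.2 CPM in crush AAV-null nerves and 93.9 ± 16.7 CPM in sham nerves (SD, n = 5 each). After crush with AAV-null over sham its log2 fold change was 0.29 (95% interval 0.03 to 0.56), and it passed as higher when sham replicate 2 was left out (0.39, edgeR adjusted p = 0.0267).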
